A study of Mus musculus with 49 samples.

Results

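Gene expression in normal short-term HSC (ST-HSC, n = 5), where HSC stands for haematopoietic stem cell, was compared with expression in normal multipotent progenitors (MPP, n = 6). The comparison covered 12606 of the 38253 genes in the deposited table, those whose mean over these 11 samples was at least 1 FPKM (fragment numbers divided by the length of the transcript and by the size of the library). The gene just inside this limit had a mean of 1.001 FPKM and the gene just outside it 0.9991 FPKM. The series holds 49 RNA-sequencing samples in 10 groups and asks how the cell of origin shapes leukaemias caused by MLL-AF9 (MA9), with ST-HSC and MPP among the cells transformed. All 11 samples were bone marrow cells of WT C57BL/6J mice aged 6 to 12 weeks, female by the study's methods. Each came from an individual mouse, so that p-values measure the spread between mice. By the study's methods the mice belonged to more than 1 replicate experiment, which the labels do not assign to samples, so this spread may include a batch that could not be modelled. By the study's methods, marrow was depleted of cells carrying CD3ε, CD11b, B220, Gr-1 or Ter-119, and Lin- Sca-1+ c-Kit+ CD34+ cells were then sorted, CD150+ for ST-HSC and CD150- for MPP. The groups are therefore gates and not pure cell types. The range of sorted cell numbers was also lower for ST-HSC than for MPP, although the ranges meet, and this difference in input cannot be told apart from the difference in population.

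Haematopoietic stem cells sustain all blood lineages, and as they differentiate they lose self-renewal before they lose the ability to form several lineages. Early multipotent cells can already express, at low levels, genes of the lineages they may enter, a state known as lineage priming. CD150 (the product of Slamf1) marks stem cells and cells able to form megakaryocytes and erythrocytes, whereas the receptor tyrosine kinase FLT3 marks multipotent cells with lymphoid and granulocyte-macrophage potential.

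The sorting antigens were checked first. Slamf1 (chr1:173697258-173731315, plus strand, mm9) was at 15.8, 4.79, 9.31, 6.64 and 8.97 FPKM in ST-HSC 1 to 5, and at 0.07 to 0.30 FPKM, with a median of 0.15, in MPP. The groups did not overlap, and as the gate used CD150 this is a check of the labels and not a result. Kit, the stem cell factor receptor, had a mean of 107.5 ± 19.5 FPKM (SD, n = 5) in ST-HSC and 109.9 ± 13.8 FPKM (SD, n = 6) in MPP. Ly6a, which encodes Sca-1, was at 61.8 ± 8.54 FPKM in ST-HSC and 116 ± 21.4 FPKM in MPP, with no overlap and a difference of -0.89 that was under 2-fold (limma adjusted p = 0.00101). Cd34 was detected in every sample, from 44.1 to 107.7 FPKM in ST-HSC.

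Some ST-HSC samples stood apart in genes of mature cells. The 15 markers of mature granulocytes summed to 67.5, 133, 1288, 45126 and 9425 FPKM in ST-HSC 1 to 5, and to between 18.6 and 921 FPKM in MPP. In ST-HSC 4 and 5 S100a8, a calcium-binding protein abundant in neutrophils, was at 12625 and 2201 FPKM. The erythroid genes summed to 44038 FPKM in ST-HSC 4, to 7115 and 7657 in ST-HSC 2 and 5, and to 340 to 1976 in MPP. Gr-1 and Ter-119 had been used to remove such cells, and ST-HSC 4 and 5 were left out in an alternative fit, given with each list in which it changed a call. Markers of mature B cells reached 107 FPKM in ST-HSC 4 and were at 40.0 FPKM or less in the other 10 samples. Stromal and endothelial markers summed to 39.7 FPKM in ST-HSC 1 and to at most 14.5 FPKM elsewhere. What part these cells had in any result was not tested.

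Other measures of the libraries also differed between the groups. Depth relative to the median sample ranged from 0.856 to 1.22 in ST-HSC and from 0.923 to 1.13 in MPP. Between 16036 and 16715 genes were above 0 in ST-HSC, and between 16806 and 17852 in MPP. Mitochondrial genes took 26.9% to 34.5% of the summed FPKM in ST-HSC and 15.2% to 27.2% in MPP. The deviation of a sample from the gene means changed by -0.271, -0.267, -0.169, 0.0286 and -0.113 (log2) per 10% of GC content in ST-HSC 1 to 5, and by 0.0476 to 0.225 in MPP, so that the groups did not overlap in this technical measure. A fit corrected for GC content and length is therefore given with each list in which it changed a call. In bulk samples, fewer cells of a type and less RNA per cell cannot be told apart.

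A gene was called when limma's adjusted p was below 0.05 and its level differed by more than 2-fold, that is by more than 1 on the scale of log2(FPKM + 1). This scale understates the change of low genes. Of the 12606 genes, 170 (1.35%) were called higher in ST-HSC and 276 (2.19%) were called lower. With samples scaled by median ratios the counts were 215 and 189, and with correction for GC content and length 197 and 142, so that the balance between higher and lower calls depended on the scaling. Of the 170 genes, 169 kept their call under median-ratio scaling and 148 after the GC correction. Of the 276 genes, 189 and 131 did. Without regard to fold, 597 genes (4.74%) were higher and 1950 (15.5%) lower at an adjusted p below 0.05. Every ST-HSC sample lay above every MPP sample in 349 genes (2.77%) and below in 1169 (9.27%). The median difference over all genes was -0.10, and median-ratio scaling moved it by 0.107.

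Without further scaling or GC correction, the called rises were larger and fewer than the called falls. Their median was 1.52 against -1.21 for the falls, and 42 of the 170 exceeded 2 on the log2 scale, as against 14 of the 276. The groups did not overlap in 126 of the genes called higher and in 220 of those called lower. Because the filter used the mean over both groups, 58 genes called higher had an MPP mean below 1 FPKM and 37 called lower had an ST-HSC mean below 1 FPKM, and these had to differ to pass. Median GC content was 48.3% for genes called higher, 54.6% for genes called lower and 49.4% for all genes. In 10 and 23 of these genes, respectively, more of the sequence was shared with another gene than not, which makes their values uncertain.

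**Figure D1:**
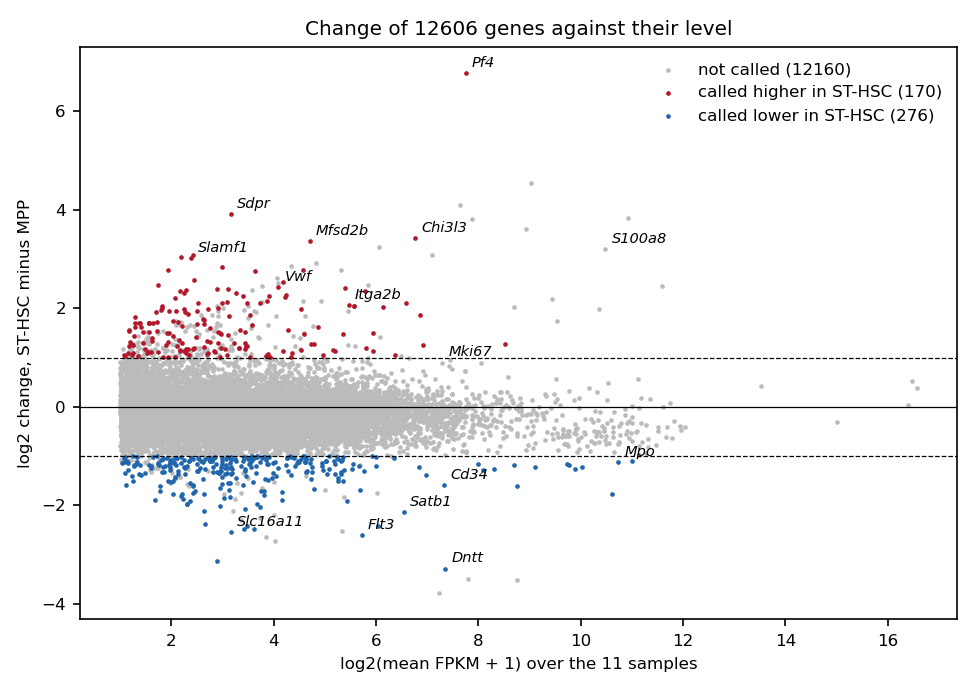
The difference between ST-HSC and MPP (log2 scale, y axis) is plotted against the mean level over the 11 samples (log2 scale, x axis), with 1 point for each of the 12606 genes. The 170 genes called higher in ST-HSC are red and the 276 called lower are blue; dashed lines mark a 2-fold difference, and Pf4 lies farthest from 0 at 6.78.

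Genes of megakaryocytes and platelets rose together in ST-HSC. Of 22 tested members of a list of such genes, 16 were called higher and none lower, with a median of 1.97 against -0.10 for all genes. Of these 22, 7 had an MPP mean below 1 FPKM and so reached the limit only through ST-HSC, 6 of them called (Clec1b, Gp1bb, Gp5, Ppbp, Rab27b and Treml1), and of the other 15 genes 10 were called, against 1.35% of all genes. Pf4, which encodes platelet factor 4, a chemokine of platelet granules (chr5:91201461-91202407, plus strand, mm9), had the largest rise of all 12606 genes. It was at 1110.4, 437, 329.6, 209 and 248.6 FPKM in ST-HSC 1 to 5, and at 0.33 to 4.53 FPKM in MPP, with a median of 3.11. Every ST-HSC sample stood far above every MPP sample, and ST-HSC 1 was the highest. The difference was 6.78 (SE 0.44, limma adjusted p = 2.72e-06).

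Receptors of the platelet surface made up 9 of the 16 calls. Itga2b, the αIIb chain of the fibrinogen receptor (chr11:102314611-102331436, minus strand), was at 101, 65.8, 74.1, 54.2 and 77.2 FPKM in ST-HSC and at 13.6 to 21.6 FPKM (median 16.3) in MPP. It rose by 2.07 (SE 0.16, limma adjusted p = 9.95e-06) with no overlap. Its partner Itgb3, the β3 chain, rose by 2.24 (SE 0.19). The 4 subunit genes of the von Willebrand factor receptor, Gp1ba, Gp1bb, Gp5 and Gp9, rose by 2.11, 1.82, 2.21 and 1.98. Gp9 was the most abundant of these in both groups, at 37.95 ± 7.56 FPKM in ST-HSC and 8.86 ± 1.85 FPKM in MPP. Treml1, a receptor stored in platelet granules (chr17:48499241-48506499, plus strand), was at 15.8, 6.93, 8.68, 7.86 and 7.62 FPKM in ST-HSC and at 0 to 0.42 FPKM in MPP, with a median of 0.165. F2rl2, a receptor for thrombin, was at 32.8, 23.1, 17.8, 17.1 and 20.8 FPKM in ST-HSC and at 1.67 to 3.16 FPKM in MPP. Both separated the groups without overlap, with differences of 3.07 and 2.75. Clec1b, the platelet receptor for podoplanin, was uneven in ST-HSC, at 7.15, 0.31, 3.91, 1.57 and 2.52 FPKM, and no more than 0.16 FPKM in MPP.

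The other members called higher were Ppbp, a further platelet chemokine, with a difference of 1.97, Rab27b, a GTPase of granule release (2.37), Plek, a kinase substrate of platelets (1.05), Serpine2, a protease inhibitor (2.01), Gata1 and Zfpm1. Gata1 encodes a transcription factor of megakaryocytes and erythroid cells, and Zfpm1 its cofactor FOG1. Gata1 (chrX:7536386-7555197, minus strand) was at 15.7, 6.77, 14.9, 14.5 and 16.2 FPKM in ST-HSC and at 1.09 to 5.07 FPKM (median 1.97) in MPP. ST-HSC 2 was the lowest of its group and still above every MPP sample, and the rise was 2.14 (SE 0.29, limma adjusted p = 0.000502). The 6 tested members without a call were Gfi1b (0.80, adjusted p = 0.0427), P2rx1 (0.69, adjusted p = 0.00704), Selp (0.68, adjusted p = 0.0710), Nfe2 (0.04, adjusted p = 0.850), Cd36 (1.18, adjusted p = 0.147) and Thbs1 (-0.10, adjusted p = 0.911). Nfe2, a transcription factor needed for platelet release, was at 57.7 ± 12.0 FPKM in ST-HSC and 55.3 ± 5.43 FPKM in MPP.

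In 17 of the 22 genes every ST-HSC sample lay above every MPP sample, as in 2.77% of all genes. Some of the 17, such as Treml1, had reached the limit only through ST-HSC. The number called was 16 without ST-HSC 4 and 5, 16 after the GC correction, with Plek lost (0.98) and Gfi1b gained (1.175), and 15 or 16 when any 1 sample was left out. Plek was also lost without ST-HSC 1 (0.87), MPP 3 or MPP 6. The summed FPKM of the list ranged from 678 to 1804 in ST-HSC, with ST-HSC 1 highest, and from 178 to 243 in MPP. A further 6 members could not be compared, 5 because they were below the limit and 1 because its symbol matched no gene.

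**Figure D2:**
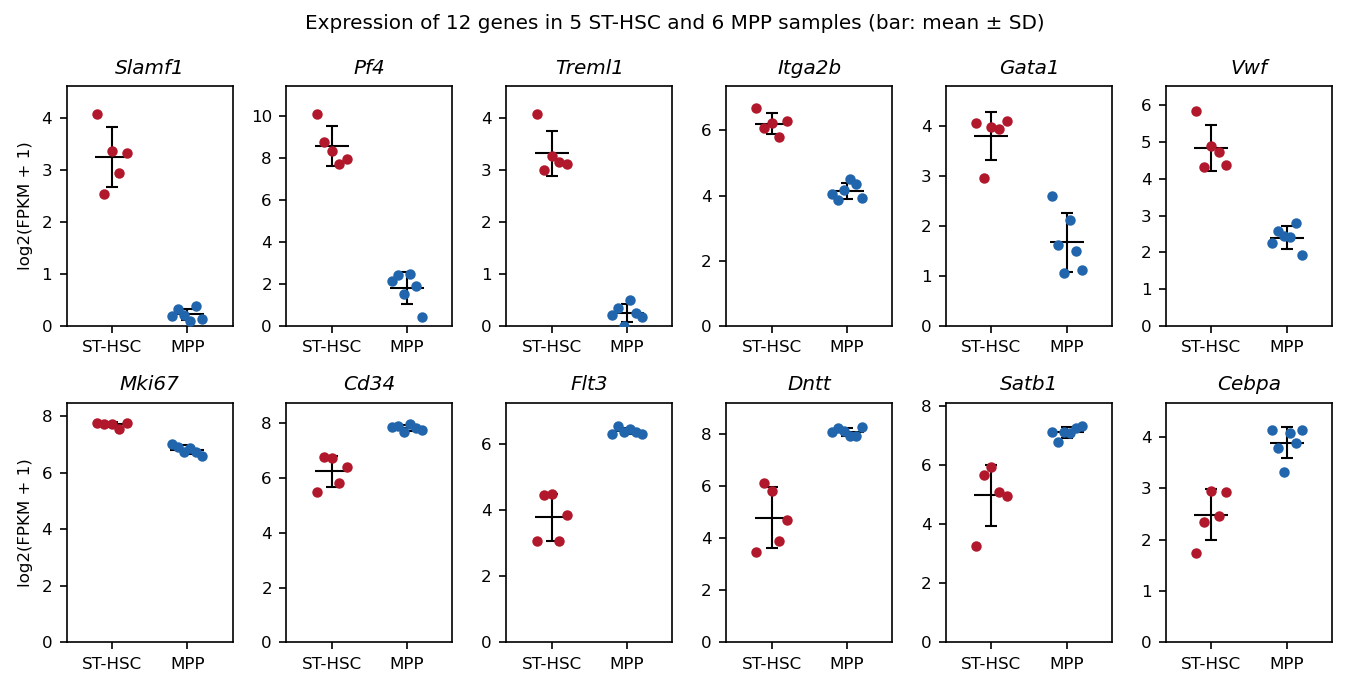
Expression of 12 genes as log2(FPKM + 1) (y axis) is shown for 5 ST-HSC samples (red) and 6 MPP samples (blue), with 1 point per sample and bars for the mean and SD. Slamf1, Pf4, Treml1, Itga2b, Gata1, Vwf and Mki67 were higher in every ST-HSC sample than in any MPP sample, and Cd34, Flt3, Dntt, Satb1 and Cebpa lower.

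The promoters of 4 of these genes and of 1 gene with the opposite change are shown because they hold the letters AGATAA, the core of the sequence bound by GATA factors, and Gata1 was among the genes called. The windows run from 250 bases before to 50 bases after the start of the gene in RefSeq (GRCm38.p6), 5′ to 3′ on the strand of the gene. Capitals mark AGATAA or its reverse complement TTATCT. They lie at chr5:90772185-90772484 (plus strand) for Pf4, chr13:95696670-95696969 (plus strand) for F2rl2, chr16:30310732-30311031 (minus strand) for Gp5, chr6:129397047-129397346 (plus strand) for Clec1b and chr19:41029025-41029324 (plus strand) for Dntt.
Pf4: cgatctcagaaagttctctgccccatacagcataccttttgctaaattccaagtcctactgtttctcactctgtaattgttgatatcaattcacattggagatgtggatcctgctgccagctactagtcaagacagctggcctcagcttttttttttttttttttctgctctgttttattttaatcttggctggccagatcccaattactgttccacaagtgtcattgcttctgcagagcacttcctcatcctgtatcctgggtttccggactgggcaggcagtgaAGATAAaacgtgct
F2rl2: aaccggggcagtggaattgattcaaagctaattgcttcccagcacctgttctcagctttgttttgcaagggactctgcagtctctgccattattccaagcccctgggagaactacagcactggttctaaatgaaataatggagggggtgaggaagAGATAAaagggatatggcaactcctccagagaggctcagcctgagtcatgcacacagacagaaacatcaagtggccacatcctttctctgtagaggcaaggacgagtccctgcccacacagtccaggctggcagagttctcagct
Gp5: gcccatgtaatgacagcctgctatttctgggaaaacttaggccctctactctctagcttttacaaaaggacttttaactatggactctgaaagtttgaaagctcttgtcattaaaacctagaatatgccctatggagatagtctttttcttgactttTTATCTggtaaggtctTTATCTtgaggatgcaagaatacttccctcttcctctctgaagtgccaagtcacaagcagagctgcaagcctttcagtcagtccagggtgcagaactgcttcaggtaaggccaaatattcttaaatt
Clec1b: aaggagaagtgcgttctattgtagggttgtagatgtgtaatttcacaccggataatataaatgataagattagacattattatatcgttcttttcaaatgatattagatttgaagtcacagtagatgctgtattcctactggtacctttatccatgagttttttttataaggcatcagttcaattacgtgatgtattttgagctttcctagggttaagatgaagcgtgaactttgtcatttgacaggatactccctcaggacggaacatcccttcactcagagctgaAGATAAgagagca
Dntt: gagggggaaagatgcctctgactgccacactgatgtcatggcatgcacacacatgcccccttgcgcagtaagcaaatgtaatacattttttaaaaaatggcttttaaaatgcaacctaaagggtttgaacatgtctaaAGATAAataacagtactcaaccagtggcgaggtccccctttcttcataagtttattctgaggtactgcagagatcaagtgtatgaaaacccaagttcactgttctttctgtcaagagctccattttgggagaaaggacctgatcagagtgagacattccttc

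The letters AGATAA, on either strand, were in 25 of 146 windows (17.1%) of the genes called higher, in 19 of 289 (6.57%) of the genes called lower and in 777 of 11623 (6.69%) of all genes tested. They were in 5 of 18 windows (27.8%) of the platelet list and in 11.2% of all 32851 promoter windows. In Pf4 and Clec1b the match began at bases 37 and 38, counted from 1 at the start of the gene, in F2rl2 95 bases before the start, in Gp5 93 and 77 bases before it, and in Dntt 112 bases before it. The letters CCGGAAG, which ETS factors bind, were in 1.37% of windows of genes called higher, 4.84% of windows of genes called lower and 18.4% of all those tested. Promoters were matched for 115 of the 170 genes, 196 of the 276 and 9116 of the 12606, and a match describes the letters and not a bound site. The GC content of the windows was not compared between these sets, so what part it had in the shares was not tested.

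Outside that list and Slamf1, 8 further genes were among the 12 largest rises without overlap. Sdpr, also called cavin-2, a protein of membrane caveolae, was at 38.2, 14.3, 11.8, 9.27 and 13.2 FPKM in ST-HSC and at 0 to 0.43 FPKM in MPP (median 0.020), a rise of 3.91 (SE 0.29, limma adjusted p = 7.73e-06). Mfsd2b, an exporter of sphingosine-1-phosphate in erythrocytes and platelets (chr12:4869246-4881165, minus strand), was at 54.3, 38.6, 57.1, 48.9 and 51.8 FPKM in ST-HSC and at 2.91 to 5.71 FPKM (median 3.97) in MPP. The groups were far apart with little spread in either, and Mfsd2b rose by 3.36 (SE 0.15, limma adjusted p = 1.13e-07). Tuba8, an α-tubulin, rose by 2.77, and Kcnj5, a potassium channel that was at most at 0.06 FPKM in MPP, by 3.03. Pde10a, a cyclic nucleotide phosphodiesterase, rose by 2.47, the olfactory receptor gene Olfr417 by 2.57 and the T-cell receptor β segment Trbv13-2 by 2.54. Vwf, the von Willebrand factor of platelets, endothelium and some stem cells, which was not among the 12, rose by 2.43 without overlap, with 56.6, 19.03, 29.0, 25.7 and 19.6 FPKM in ST-HSC and 2.78 to 6.02 FPKM in MPP. These genes were all called without ST-HSC 4 and 5 and after the GC correction.

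The other gene of the 12 was Kap, first described as a kidney androgen-regulated protein (chr6:133799873-133803685, minus strand). It was at 7.84, 5.35, 4.20, 3.40 and 10.4 FPKM in ST-HSC and was listed at 0 in all 6 MPP samples (limma adjusted p = 2.53e-05), so that no fold is given. It was also listed at 0 in every CMP, GMP, MPP:MA9, CMP:MA9 and GMP:MA9 sample. In LT-HSC it was at 5.93 ± 2.81 FPKM (SD, n = 5), in MEP at 4.69 ± 1.75 FPKM (SD, n = 4) and in STHSC:MA9 at 4.10 ± 1.26 FPKM (SD, n = 3). Every sample of these 3 groups and of ST-HSC was above 0. An exact 0 in FPKM can be a failed estimate. By the study's methods all mice were female. The labels give no library batch, so whether a batch moved with these values could not be examined.

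Genes known from stem cells gave no common direction. Of 22 tested surface and secreted genes of stem cells, 5 were called higher, against 1.35% of all genes, and none lower, with a median of 0.47. Besides Vwf these were Tek, the angiopoietin receptor TIE2 (1.42), Cd9, a tetraspanin (1.47), Ctnnal1, α-catulin (1.10), and Clca1, a chloride channel accessory protein (2.35), 37.5% of whose sequence is shared with another gene. Ctnnal1 was not called without ST-HSC 1 (0.98) or ST-HSC 2 (0.91). After the GC correction 6 of the list were called higher, and also 6 without ST-HSC 4 and 5, when Sult1a1, a sulfotransferase chosen after its values were seen, was called (1.15, against 0.73 with all samples). Procr, the endothelial protein C receptor, was at 5.94 ± 1.74 FPKM in ST-HSC and 8.26 ± 1.98 FPKM in MPP (-0.42, adjusted p = 0.160).

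Of 20 tested transcription factors of stem cells, 1 was called higher and 2 were called lower, against 1.35% and 2.19% of all genes. The median of the list was -0.18. Gfi1, a repressor that restrains stem cell proliferation, fell by 1.31 and Lyl1, a basic helix-loop-helix factor, fell by 1.11. Neither was called after the GC correction (-0.92 and -0.59), nor was Gfi1 without ST-HSC 1 (-0.94) or Lyl1 under median-ratio scaling (-0.98). Mecom, the gene of EVI1, was uneven in ST-HSC, at 91.4, 61.4, 50.2, 14.6 and 32.3 FPKM, and at 25.6 to 50.1 FPKM in MPP. Its difference of 0.30 did not pass the test (adjusted p = 0.615), and without ST-HSC 4 and 5 it was 0.92 (adjusted p = 0.024). Meis1 (0.44, adjusted p = 0.0907), Gata2 (0.77, adjusted p = 0.00155) and Hoxa9 (-0.89, adjusted p = 0.00551) were not called. Gata2 was called at 1.15 after the GC correction. The imprinted gene Grb10, an adaptor that restrains growth factor signalling, rose by 1.65, the only call among 4 tested imprinted genes.

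Lymphoid genes moved the other way. Of 25 tested genes of lymphoid priming, 8 were called lower in ST-HSC and none higher, against 2.19% of all genes called lower, with a median of -0.82. Without regard to fold 15 of the 25 were lower at an adjusted p below 0.05, as were 15.5% of all genes. Dntt, the terminal transferase that adds bases to antigen receptor joints (chr19:41103765-41134013, plus strand), had the largest fall that did not overlap. It was at 10.01, 67.5, 54.8, 13.8 and 24.8 FPKM in ST-HSC and at 236 to 308 FPKM, with a median of 268, in MPP. All ST-HSC samples were below all MPP samples, with a wide range in ST-HSC, and Dntt fell by 3.28 (SE 0.40, limma adjusted p = 0.00023). Satb1, a chromatin organiser of T-cell development, was at 8.50, 49.4, 59.9, 32.9 and 30.4 FPKM in ST-HSC and at 109.8 to 158 FPKM (median 139) in MPP, and fell by 2.14. Rag2, a subunit of the recombinase of antigen receptor genes, fell by 1.76, from 8.05 ± 1.18 FPKM in MPP to 1.85 ± 1.07 FPKM. Its partner Rag1 was below 1 FPKM on average and was not tested.

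The remaining lymphoid falls were Notch1, the receptor that sets T-cell fate (-1.40), Tcf7, a factor of early T cells (-1.19), Il12a, a cytokine subunit (-1.51), Lax1, an adaptor of lymphocyte signalling (-1.24), and Sox4, a factor of early lymphocytes (-1.58), 54.7% of whose sequence is shared with another gene. Cd27, a receptor of the tumour necrosis factor family, did not overlap between groups but was under 2-fold at -0.99. Among genes of T and NK cells Lck, a kinase of the T-cell receptor, fell by 1.66, with 2.63 ± 1.02 FPKM in ST-HSC and 10.1 ± 0.919 FPKM in MPP. The list had 13 calls without ST-HSC 4 and 5, 7 after the GC correction, when Tcf7 was lost (-0.94), and 8 to 12 with any 1 sample left out. Lax1 was lost without ST-HSC 4 (-0.97) and without ST-HSC 4 and 5 (-0.94).

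Of 21 tested cytokine receptor genes, 3 were called lower and 1 higher, against 2.19% and 1.35% of all genes. Flt3 (chr5:148142317-148212065, minus strand) was at 7.42, 20.9, 21.3, 7.32 and 13.3 FPKM in ST-HSC and at 77.8 to 92.0 FPKM (median 81.4) in MPP, and was even in MPP but not in ST-HSC. It fell by 2.60 (SE 0.25, limma adjusted p = 4.96e-05). The interleukin-1 receptor Il1r1 fell by 1.72, and the interleukin-7 receptor Il7r, with 2.37 ± 1.18 FPKM in ST-HSC and 6.00 ± 2.33 FPKM in MPP, fell by 1.05. Il7r overlapped between groups and lost its call under median-ratio scaling (-0.95) and without any of 6 samples, ST-HSC 1, 3 or 5 or MPP 3, 5 or 6. Epor, the receptor for erythropoietin, rose by 1.64. Without ST-HSC 4 and 5, 6 receptors were called lower, and after the GC correction 2 were called higher. Cd34, a sorting antigen of both gates, was at 44.1, 107.7, 106, 55.9 and 83.9 FPKM in ST-HSC and at 207 to 253 FPKM (median 227) in MPP, and fell by 1.58 (SE 0.21, limma adjusted p = 0.00037) with no overlap.

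Some genes primed in granulocyte-macrophage cells fell too. Of 22 tested, 5 were called lower, against 2.19% of all genes, and none higher, with a median of -0.61. These were Cebpa, a transcription factor of granulocytes (-1.41), Irf8, a factor of monocytes and dendritic cells (-1.33), Prtn3 and Mpo, enzymes of neutrophil granules (-1.28 and -1.13), and Plac8 (-1.25). Cebpa was at 2.34, 4.07, 6.72, 4.51 and 6.61 FPKM in ST-HSC and at 9.04 to 16.6 FPKM (median 14.8) in MPP without overlap. Mpo was abundant and overlapped, at 421, 777, 1392, 984 and 1722 FPKM in ST-HSC and at 1095 to 3178 FPKM (median 2315) in MPP. Cathepsin G (Ctsg) was not called (-0.91, adjusted p = 0.161).

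The number of calls in that list rested on single samples. It was 2 without ST-HSC 1 and 8 without ST-HSC 4, 11 without ST-HSC 4 and 5 (median -1.18), and 2 after the GC correction, when only Irf8 and Plac8 were called. Plac8 was lost without ST-HSC 1 (-0.98), Prtn3 without ST-HSC 1 or 2 or MPP 1, 4 or 6, and Mpo without ST-HSC 1, 2 or 4 or MPP 1, 3, 4 or 6 and under median-ratio scaling. The separate list of mature granulocyte markers, which has no gene in common with this list, was highest in ST-HSC 4 and 5. What part mature granulocytes had in these counts was not tested. Of 9 tested MHC class II genes only H2-Ob was called (-1.28), but all 9 differences were below 0, with a median of -0.68. Without regard to fold 4 of the 9 were lower at an adjusted p below 0.05, as were 15.5% of all genes. After the GC correction 2 were. The invariant chain Cd74 was at 109 ± 63.8 FPKM in ST-HSC and 128 ± 68.2 FPKM in MPP.

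The other large falls were in genes of varied function. Slc16a11, a transporter of the monocarboxylate family, fell by 2.54, from 13.3 ± 3.99 FPKM in MPP to 1.59 ± 1.16 FPKM. Expi, an extracellular proteinase inhibitor, fell by 2.38, Pgr, the progesterone receptor, by 2.11, Bpifc, of the family of bactericidal permeability-increasing protein, by 2.03, and Cnn3, a calponin of the actin cytoskeleton, by 2.01. Gm6158 (-3.13), Gm12728 (-2.48), Gm5111 (-2.08) and 9030619P08Rik (-1.92) complete the 12 largest. Gm6158 was listed at 0 in 4 of 5 ST-HSC samples, and it and Gm12728 share 67.2% and 55.7% of their sequence with other genes. All 12 were called without ST-HSC 4 and 5 and after the GC correction.

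**Figure D3:**
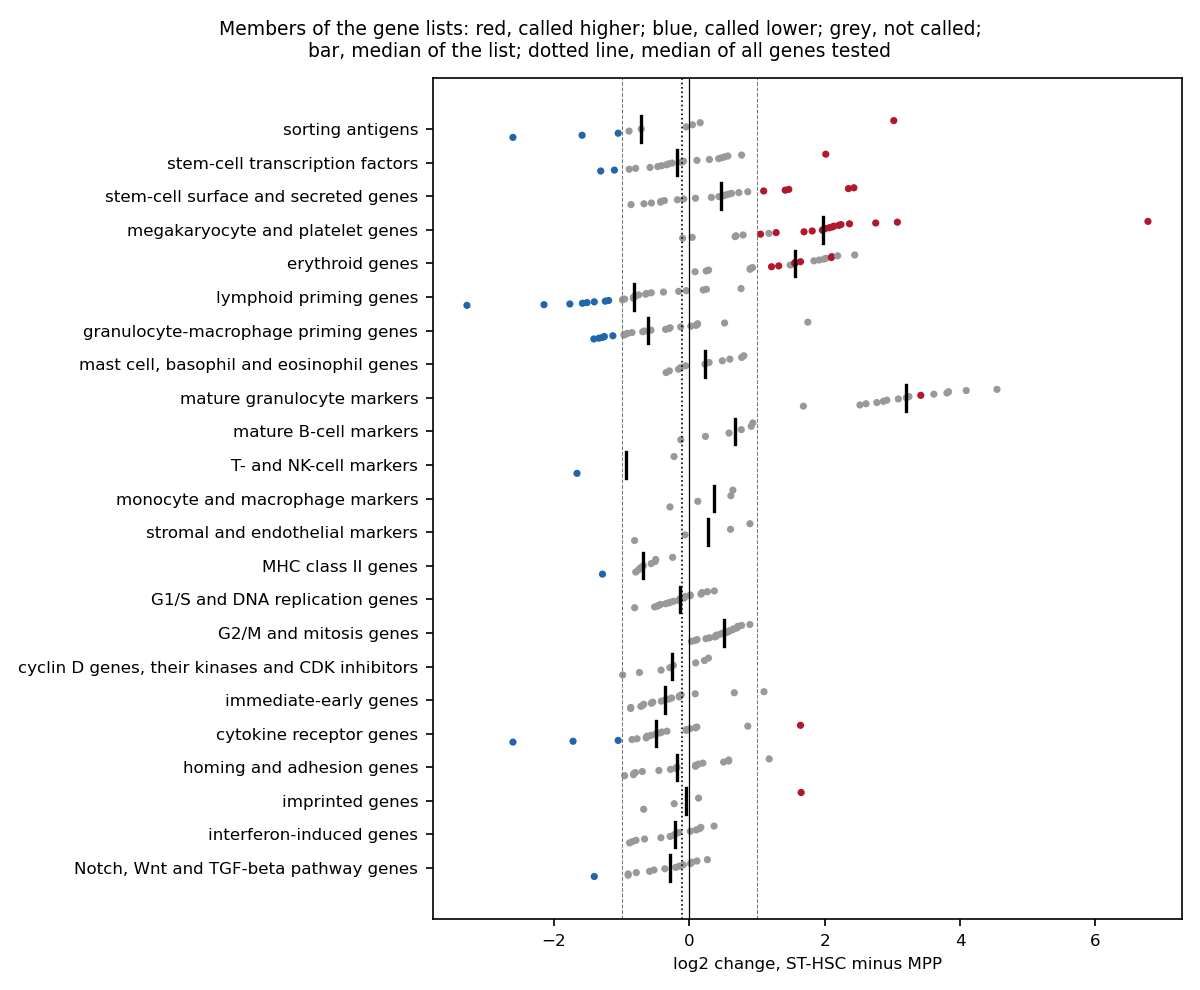
Each point is a tested gene of 1 of the 23 lists, placed by its difference between ST-HSC and MPP (log2 scale, x axis), red if called higher, blue if called lower and grey if not called. Bars mark the median of a list, 1.97 for megakaryocyte and platelet genes, -0.82 for lymphoid priming genes and 0.52 for G2/M and mitosis genes, and the dotted line the median of all genes, -0.10.

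Genes of cell division were examined by phase. No gene of the G2/M and mitosis list was called at 2-fold, but 14 of 20 were higher in ST-HSC at an adjusted p below 0.05, against 4.74% of all genes, none was lower, and all 20 differences were above 0, with a median of 0.52. Mki67, the gene of the proliferation antigen Ki-67 (chr7:142881471-142908062, minus strand), was at 217, 211, 209, 187 and 217 FPKM in ST-HSC and at 96.1 to 129 FPKM (median 111) in MPP. The groups were tight and did not overlap, and the difference was 0.90 (SE 0.09, limma adjusted p = 8.02e-05), or 1.02 and called under median-ratio scaling. Among members chosen after their values were seen, Ube2c, a ubiquitin-conjugating enzyme of mitotic exit, differed by 0.77, Nusap1, a spindle protein, by 0.70 and Kif11, a spindle motor, by 0.66, each with no overlap. Cdk1 (0.12, adjusted p = 0.723) and Cdc20 (0.03, adjusted p = 0.886) did not pass.

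The summed FPKM of that list was 1428 to 1700 in ST-HSC and 879 to 1296 in MPP, without overlap. The number past the test was 14 without ST-HSC 4 and 5, 15 after the GC correction, 9 to 14 with any 1 sample left out, and 6 with the replicate number as a block. Of 22 genes of G1/S and DNA replication, none was called, and 5 were lower and none higher at an adjusted p below 0.05, where 15.5% of all genes were lower. Their median of -0.14 was also near that of all genes (-0.10), and 1 gene was lower after the GC correction and 1 with the block. Their summed FPKM overlapped, at 1122 to 1374 in ST-HSC and 1148 to 1503 in MPP. Cdt1, a licensing factor of replication chosen after its values were seen, was at 17.6 ± 2.26 FPKM against 31.5 ± 3.45 FPKM, a difference of -0.81. The cyclin D kinase Cdk6 differed by 0.10 (adjusted p = 0.550). Cdkn1c, an inhibitor of cell division in quiescent stem cells, was at 0.71 to 1.73 FPKM in ST-HSC and 0.22 to 2.00 FPKM in MPP and was below the limit for testing.

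The promoters of Mki67 and Ube2c are shown for the letters of 2 elements common in mitotic genes, TTTGAA (the cell cycle homology region) and CCAAT (bound by NF-Y). Capitals mark these letters or their reverse complements TTCAAA and ATTGG. The windows are of the same kind as above, at chr7:135716330-135716629 (minus strand) for Mki67 and chr2:164769679-164769978 (plus strand) for Ube2c.
Mki67: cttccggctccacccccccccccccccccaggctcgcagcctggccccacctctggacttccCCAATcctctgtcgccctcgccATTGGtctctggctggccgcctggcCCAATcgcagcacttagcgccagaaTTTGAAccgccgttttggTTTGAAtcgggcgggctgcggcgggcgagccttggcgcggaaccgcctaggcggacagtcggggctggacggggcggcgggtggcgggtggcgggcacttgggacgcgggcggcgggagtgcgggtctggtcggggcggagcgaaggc
Ube2c: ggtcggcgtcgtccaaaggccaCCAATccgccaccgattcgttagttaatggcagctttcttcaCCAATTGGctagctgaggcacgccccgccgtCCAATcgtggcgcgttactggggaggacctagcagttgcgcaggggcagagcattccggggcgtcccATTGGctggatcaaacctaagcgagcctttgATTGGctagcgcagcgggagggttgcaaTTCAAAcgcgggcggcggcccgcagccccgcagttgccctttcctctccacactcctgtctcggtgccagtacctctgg

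TTTGAA was in 12 of 18 windows (66.7%) of the G2/M list, in 12.6% of windows of all genes tested and in 17.9% of all promoter windows. CCAAT was in 16 of 18 (88.9%), 38.2% and 37.4%. In the windows of genes called higher the shares were 17.1% and 31.5%, and in those of genes called lower 15.6% and 33.2%. Mki67 held 2 matches to TTTGAA and 3 to CCAAT. Ube2c held 1 and 6, of which a pair on opposite strands overlapped.

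A part of the erythroid list rose, with high values in the samples that stood apart. Of 21 tested, 7 were called higher, against 1.35% of all genes, and none lower, with a median of 1.56. These were Klf1, an erythroid transcription factor (1.32), Epor, Car1, a carbonic anhydrase (2.10), Ermap, a membrane protein of erythroid cells (1.56), Aqp1, a water channel (2.11), Hemgn, a nuclear protein of blood progenitors (1.56), and Icam4, an adhesion molecule of erythroid cells whose sequence is shared in full with another gene (1.22). Aqp1 was at 19.8, 11.7, 19.9, 33.4 and 22.2 FPKM in ST-HSC and at 1.75 to 9.35 FPKM in MPP, with no overlap. Klf1 was at 5.21, 3.74, 6.21, 17.4 and 12.6 FPKM in ST-HSC and at 0.83 to 5.38 FPKM in MPP, with the highest values in ST-HSC 4 and 5. Without these 2 samples Klf1 (0.76), Ermap (1.15) and Car1 (2.06) were not called, 4 genes were, and the list's median was 0.58. Klf1 also lost its call without any 1 of ST-HSC 3 to 5 or MPP 3 to 6, and Ermap without any 1 of ST-HSC 1, 2, 4 or 5 or MPP 3, 5 or 6. The haemoglobin gene Hbb-b1, chosen after its values were seen, was at 109, 3770, 48.8, 24164 and 3781 FPKM in ST-HSC and at 47.4 to 755 FPKM in MPP and was not called (adjusted p = 0.241).

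Mature granulocyte markers were highest in 2 samples. All 15 had differences above 0, with a median of 3.21, but only Chi3l3, a chitinase-like protein, was called (3.42, adjusted p = 0.0415). It was at 9.18, 6.38, 36.6, 839 and 263 FPKM in ST-HSC and at 1.88 to 14.4 FPKM in MPP, and was not called without ST-HSC 4 and 5 (1.40, adjusted p = 0.155), after the GC correction (adjusted p = 0.0649) or without any 1 of ST-HSC 3 to 5 or MPP 1 to 4. Without them the median of the list was 0.71 and none was called, whereas 7 were called without ST-HSC 1 or without ST-HSC 2. After the GC correction Fcnb, a ficolin chosen after its values were seen, was called instead (2.75, adjusted p = 0.0477). S100a8 was at 11.6, 41.3, 352, 12625 and 2201 FPKM in ST-HSC and at 4.93 to 283 FPKM in MPP (adjusted p = 0.166).

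**Figure D4:**
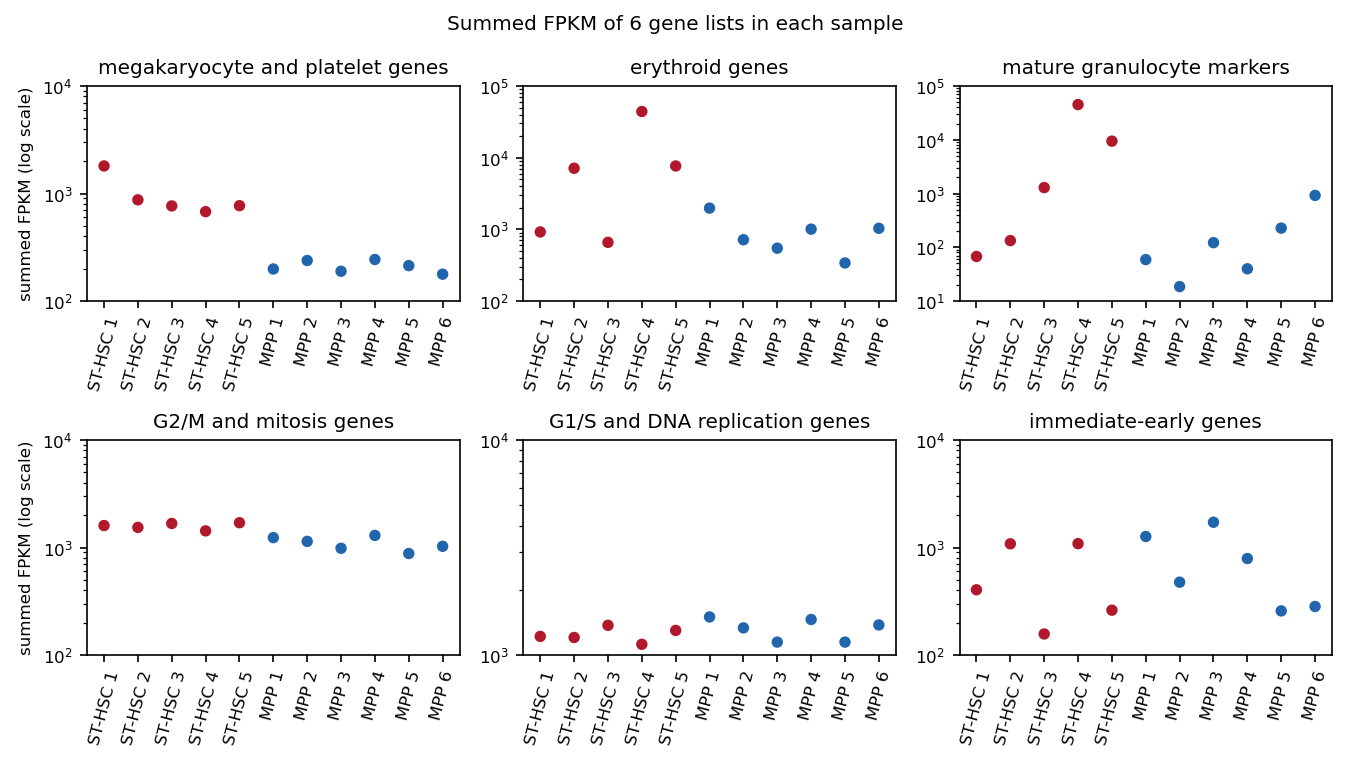
The summed FPKM (y axis, log scale) of 6 gene lists is shown for each ST-HSC (red) and MPP (blue) sample. Megakaryocyte and platelet genes and G2/M genes separated the groups in every sample, whereas mature granulocyte markers reached 45126 in ST-HSC 4 and 9425 in ST-HSC 5.

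The remaining lists had few calls or none. No member was called among 11 genes of mast cells, basophils and eosinophils, 6 of B cells, 4 of monocytes and macrophages, 4 of stroma and endothelium, 8 cyclin D, kinase and inhibitor genes, 17 of homing and adhesion and 14 induced by interferon. After the GC correction Gata2, which is also in the mast cell list, was called higher. Without ST-HSC 4 and 5, however, 5 homing genes, 3 interferon-induced genes and 1 stromal gene were called lower. Among 14 genes of the Notch, Wnt and TGF-β pathways only Notch1 was called. None of 17 immediate-early genes, which respond within minutes to handling and to growth signals, was called, with a median of -0.36. Their sums ranged from 157 to 1087 FPKM in ST-HSC and from 257 to 1718 FPKM in MPP.

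Levels in the other 4 normal populations, LT-HSC (long-term stem cells, n = 5), CMP (common myeloid progenitors, n = 5), GMP (granulocyte-macrophage progenitors, n = 5) and MEP (megakaryocyte-erythrocyte progenitors, n = 4), are given as a description. They were WT C57BL/6J cells of the same age range and sex. Pf4 was at 467 ± 370 FPKM in ST-HSC, which overlapped with LT-HSC (169 ± 64.3 FPKM) but not with CMP (151 ± 32.3 FPKM), and it was lowest on average in MPP (2.88 ± 1.59 FPKM). Itga2b was highest on average in ST-HSC, at 74.5 ± 17.4 FPKM, and overlapped with the next, CMP, at 44.6 ± 7.88 FPKM. Slamf1 did not differ beyond its spread between LT-HSC (10.9 ± 4.30 FPKM) and ST-HSC (9.10 ± 4.17 FPKM), and Vwf was highest in LT-HSC at 51.3 ± 24.7 FPKM. Gata1 was highest in MEP, at 52.0 ± 2.57 FPKM, and Klf1 was at 119 ± 8.48 FPKM in MEP against 9.02 ± 5.76 FPKM in ST-HSC.

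For Dntt and Flt3, MPP was the highest of the 6 populations and ST-HSC lay between MPP and LT-HSC. Flt3 was at 82.7 ± 5.42 FPKM in MPP, 28.2 ± 7.44 FPKM in CMP, 14.1 ± 6.90 FPKM in ST-HSC and 1.93 ± 0.756 FPKM in LT-HSC. Dntt was at 269 ± 29.4 FPKM in MPP, 34.2 ± 25.6 FPKM in ST-HSC, 31.6 ± 13.9 FPKM in CMP and 1.73 ± 1.53 FPKM in LT-HSC. Mpo was at 83.4 ± 79.8 FPKM in LT-HSC, followed by ST-HSC, MPP and CMP, which overlapped, and was highest in GMP at 12761 ± 1465 FPKM. Mki67 was highest on average in ST-HSC, at 208 ± 12.3 FPKM, and was spread from 56.1 to 213 FPKM in LT-HSC.

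**Figure D5:**
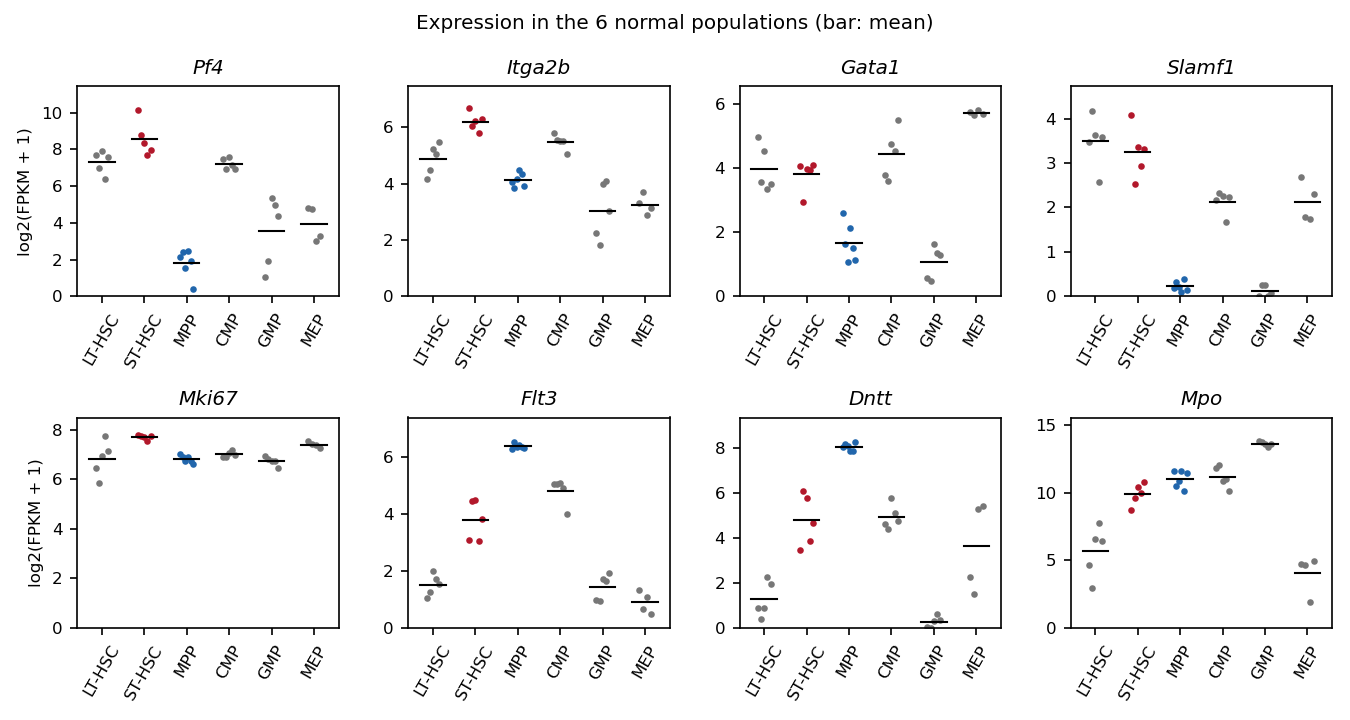
Expression of 8 genes as log2(FPKM + 1) (y axis) is shown for the 6 normal populations (x axis), with 1 point per sample, ST-HSC in red, MPP in blue and bars for the mean. Pf4 and Itga2b peak in ST-HSC and Flt3 and Dntt in MPP, whereas Gata1 peaks in MEP and Mpo in GMP.

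A comparison that shares no samples with ST-HSC and MPP, normal MEP against GMP, gave the behaviour of the called genes at a later branch. Here 1185 of 11480 genes (10.3%) were called higher in MEP and 1447 (12.6%) lower. Of the 170 genes called higher in ST-HSC, 133 were tested, and 78 (58.6%) were called higher in MEP and 16 (12.0%) lower, with a median of 1.43 against 0.06 for all genes. The 78 are 6.58% of all genes called higher in MEP. Of the 276 genes called lower in ST-HSC, 206 were tested, and 98 (47.6%) were called lower in MEP, 6.77% of all such calls, and 26 (12.6%) higher, with a median of -0.80. After the GC correction of that comparison 75 and 101 genes were called, respectively.

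Gata1 (4.66), Klf1 (6.31), Mfsd2b (5.21), Slamf1 (2.01), Vwf (1.29) and Kap, listed at 0 in GMP, were called higher in MEP. Of 16 tested genes of the platelet list, 7 were called higher in MEP and 3 lower, namely Itgb3 (-1.43), Serpine2 (-3.23) and P2rx1 (-1.49). Pf4 (0.43, adjusted p = 0.685), which had the largest rise in ST-HSC, and Itga2b (0.22, adjusted p = 0.685) were not called. Cebpa (-3.72), Cd34 (-4.91), Mpo (-9.56) and Satb1 (-2.13) were called lower in MEP. Dntt, however, was called higher (3.37), with values from 1.85 to 42.8 FPKM in MEP and at most 0.51 FPKM in GMP. By the study's methods GMP were sorted as CD150- and CD34+, so Slamf1 and Cd34 here reflect that gate and are not results.

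Leukaemias started from the same 2 populations, STHSC:MA9 (n = 3) and MPP:MA9 (n = 6), share no samples with the normal cells either. They grew from sorted WT cells carrying a retrovirus for MLL-AF9 and GFP, and by the methods GFP+ cells were taken from the spleen of irradiated recipients, although the labels give bone marrow. For these mice too the methods give female C57BL/6J aged 6 to 12 weeks. Of 12048 genes, 50 (0.415%) were called higher in STHSC:MA9 and 296 (2.46%) lower. Of the 170 genes called higher in normal ST-HSC, 84 reached the limit for testing, and 4 (4.76%) were called higher and 2 (2.38%) lower. Kap, Nt5c3 and 2 genes without a symbol were higher, and Apoe and Zfp385a lower, all apart from Kap chosen after their values were seen. Kap, listed at 0 in MPP:MA9, and the 2 genes without a symbol kept their calls after the GC correction, when 17 genes in all were called higher. Nt5c3, Apoe and Zfp385a did not. Of the 276 genes called lower in ST-HSC, 207 were tested, and 33 (15.9%) were called lower and none higher. After the GC correction 24 genes in all were called lower, 8 of them among these 207 (3.86%). With the replicate number as a block no gene was called in either direction. Only 3 replicate numbers occurred in both leukaemia groups, so that fit had little power and its lack of calls does not measure the difference.

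Of the platelet list, 12 genes reached the limit for testing in the leukaemias and none was called. Pf4 was at 0.263 ± 0.237 FPKM in STHSC:MA9 and 0.608 ± 0.580 FPKM in MPP:MA9, Itga2b at 0.437 ± 0.300 and 1.20 ± 0.882 FPKM, and Gata1 and Slamf1 at 0.16 FPKM or less in every sample of both groups. Flt3 was at 6.56 ± 7.42 FPKM in STHSC:MA9 and 34.1 ± 36.6 FPKM in MPP:MA9 and was not called (-2.20, adjusted p = 0.0979). Mki67 was at 145 ± 6.42 FPKM in STHSC:MA9 and 82.9 ± 18.9 FPKM in MPP:MA9, without overlap, a difference of 0.83 (adjusted p = 0.0266) that was under 2-fold. Of the 20 G2/M genes 4 were higher in STHSC:MA9 at an adjusted p below 0.05, as were 247 of all 12048 genes, and none was lower. Under the replicate block Mki67 did not pass, as the lowest limma adjusted p of any gene was 0.1.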

How the data were processed

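RNA of sorted cells was amplified with a NuGEN Ovation kit and sequenced on an Illumina HiSeq (5 ST-HSC and 6 MPP samples). The authors deposited FPKM values for 38253 Ensembl genes, made with RSEM on mm9 per the submitters' processing notes. The authors' own test on counts was not used here. Of 68 columns, 19 matched no sample label and were not used. Symbols and coordinates (mm9, 1-based) came from the GENCODE M1 annotation for 33068 genes.

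All genes reaching a mean of 1 FPKM were tested on log2(FPKM + 1) with limma 3.58.1 in R 4.3.3 (two-sided, eBayes with trend, Benjamini-Hochberg adjustment over all genes tested), without a replicate block. SE is the moderated standard error. Calls needed an adjusted p below 0.05 and more than 2-fold. The main fit was also run on simulated data with known changes and independent noise. These held no outlying samples and no GC difference between groups, so they do not test those limits. Named genes were the 12 largest rises and falls without overlap, called list members and a set of known genes; others are marked, and some results are not reported here. The members, lists and alternatives were chosen with earlier results of these data known. Shared sequence is the percent of 31-base windows found in another gene. Promoters came from RefSeq (GRCm38.p6). Other steps used Python 3.11.15, pandas 2.3.3, numpy 2.4.6 and matplotlib 3.10.9.

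Read totals were not part of the FPKM values, and only relative depth could be estimated, from the steps between low values (92.7% of 55 sample pairs within tolerance), so no counting intervals are given. The alternatives were a pseudocount of 0.1, no filter, median-ratio scaling, all groups of a kind in 1 fit, the replicate block, a GC and length correction, both together, eBayes without trend, no fold threshold, each sample left out, and ST-HSC 4 and 5 left out. The last combined with the GC correction was chosen after seeing the data.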

Additional observations from a re-analysis of the deposited data

Results flagged for a closer look

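In 11 of 140 groups examined, over 70 named genes, the highest or lowest sample lay far from the rest of its group by Dixon's criterion, which chance meets in about 1 of 20 groups. ST-HSC 1 was the highest of its group for Gp5 (10.04 FPKM), Pde10a (11.5 FPKM) and Treml1 (15.8 FPKM). ST-HSC 2 was the lowest for Gata1 (6.77 FPKM) and the highest for Gm6158 (2.69 FPKM), the only ST-HSC sample in which that gene was above 0. ST-HSC 3 was the lowest for Ly6a (47.1 FPKM) and ST-HSC 4 the lowest for Mki67 (187 FPKM). Among MPP samples, MPP 5 was the highest for Ctnnal1 (4.06 FPKM) and Notch1 (34.6 FPKM) and the lowest for Expi (4.34 FPKM), and MPP 2 the highest for Sdpr (0.43 FPKM).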

How the results depend on the processing

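The count of genes called higher in ST-HSC stayed within 1.5 times of 170 under every alternative except without a fold threshold (597), and ranged from 149 to 213 with any 1 sample left out. The 276 called lower became 463 with a pseudocount of 0.1, 142 with the correction for GC content and length, 118 with that correction and the replicate block, and 1950 without a fold threshold, and ranged from 235 to 322 with 1 sample left out. MEP against GMP moved only without a fold threshold, to 3867 higher and 3213 lower, with ranges of 1164 to 1204 and 1408 to 1509. STHSC:MA9 against MPP:MA9 was unstable. Its 50 higher and 296 lower calls became 27 and 197 without a filter, 17 and 24 after the GC correction and 247 and 979 without a fold threshold, and ranged from 18 to 142 and from 108 to 469 with 1 sample left out. The cause was not tested.

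Samples of the same replicate number did not deviate together, and the labels do not say whether they were processed together. Deviations of same-numbered ST-HSC and MPP samples correlated at -0.106 to 0.0459, and the mean was 0.0177 in MEP and GMP and -0.211 in the leukaemias. With the replicate number as a block, 145 genes were called higher and 236 lower in ST-HSC. In the leukaemias limma called 0 and 0 with the block, also with the GC correction. At an unadjusted limma p below 0.05 and over 2-fold, 135 were higher and 386 lower, or 143 and 201 with the GC correction. Without the block these counts were 145 and 429. Only 3 replicate numbers occurred in both leukaemia groups, so the block left that fit little power.

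Differences near 0 changed sign. Kit was at 0.0798 under median-ratio scaling, 0.0096 after the GC correction, 0.10 without ST-HSC 4 and 5 and 0.13 with both, and ranged from -0.10 to 0.0772 with 1 sample left out. Cd74 was at 0.10 after the GC correction and ranged from -0.52 to 0.0717. Of 70 named genes, 61 kept their direction and their side of the threshold after the GC correction, 65 under median-ratio scaling, 65 without ST-HSC 4 and 5 and 64 under the block. FPKM values hold no read totals, which limits what can be said of genes near 0.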
